A study of Mus musculus with 3 samples.

Results

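Chemokines of the CXC family were measured by total RNA sequencing, after ribosomal RNA depletion, in cytosolic RNA of macrophages differentiated from mouse bone marrow (BMDMs), a standard primary cell model of innate immunity. The 10 genes described are Cxcl1, Cxcl2, Cxcl3, Cxcl5, Cxcl9, Cxcl10, Cxcl11, Cxcl12, Cxcl14 and Cxcl16, taken by symbol from the 55536 genes in the tables. All samples belonged to 1 group of 3 libraries from strain C57BL/6J, each made from 1 µg of RNA. The macrophages were pretreated with lipid A, the Tlr4-binding part of bacterial lipopolysaccharide, at 100 ng/ml for 12 hours, then kept free of it for 12 hours, and given 100 ng/ml again for 60 minutes. No untreated or singly stimulated cells were analysed here, so the values are levels after the last dose and not responses to it. The replicates are listed as distinct biological samples that share 1 donor entry. The labels do not say whether the animals differed, so p-values for levels measure the spread between these samples, which may be technical. Those for differences between libraries measure only departure from counting error.

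Depth was 50807046, 53364168 and 46546422 expected counts on genes in replicates 1, 2 and 3, where an expected count is the estimated number of reads that belong to a gene. A gene with no count could have stood at up to 3 counts, which is 0.059, 0.0562 and 0.0645 CPM, a share of counts scaled to the same total in every library, in the same order, and this limit covers counting error only. Levels are given in TPM, the share of transcripts scaled to the same total, which is corrected for transcript length and can be compared between genes. All 10 macrophage markers listed, from Lyz2 at a mean of 3525 TPM to Itgam at 31.8 TPM, stood above 1 TPM. Of other cell types, 3 of 10 neutrophil markers did, with a summed level of 9.55 to 11.8 TPM and Ly6g and Retnlg listed at 0. The same held for 2 of 6 endothelial markers (Kdr and Vwf, with Tek listed at 0 TPM), 0 of 10 stromal, 0 of 7 megakaryocyte or platelet, 0 of 6 dendritic cell, 0 of 6 T and NK cell and 0 of 4 B cell markers. The test placed 4 stromal markers (Col1a1, Col1a2, Col3a1 and Postn) and 1 endothelial marker (Pecam1) neither above nor below 1 TPM, and all 4 of those stromal genes passed 1 TPM in replicate 2.

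CXC chemokines are small secreted proteins that draw leukocytes along a gradient through G-protein-coupled receptors, and they are named for a pair of cysteines near the N terminus with 1 residue between them. Members with a glutamate-leucine-arginine (ELR) motif just before the cysteines act on Cxcr2 and recruit neutrophils, while Cxcl9, Cxcl10 and Cxcl11 lack it, are induced by interferons and act on Cxcr3 of activated T and NK cells. Macrophages stimulated through Tlr4 are a known source of both kinds. The coding sequence around the motif is shown for all 10 genes, because it divides the family into the groups in which the levels are described. In each line of 24 bases, read 5′ to 3′ from the GENCODE M21 transcripts, capitals mark the codons of both cysteines and, in the ELR genes, the codons of the glutamate, leucine and arginine.
Cxcl1: aatGAGCTGCGCTGTcagTGCctg
Cxcl2: agtGAACTGCGCTGTcaaTGCctg
Cxcl3: agtGAGCTGCGCTGTcagTGCctg
Cxcl5: acgGAGCTGCGTTGTgttTGCtta
Cxcl9: aggaatgcacgaTGCtccTGCatc
Cxcl10: aggacggtccgcTGCaacTGCatc
Cxcl11: aaacaggggcgcTGTcttTGCatc
Cxcl12: ctgagctaccgaTGCcccTGCcgg
Cxcl14: gacgggtccaagTGTaagTGTtcc
Cxcl16: gtcgctggaagtTGTtctTGTgat
The ELR codons stood in Cxcl1, Cxcl2, Cxcl3 and Cxcl5 and in none of the other 6.

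The family was carried by a few genes. The summed level of the 10 genes was 2161, 1297 and 731.8 TPM in replicates 1, 2 and 3, a mean of 1397 ± 720 (SD, n = 3 here and throughout). Cxcl10 and Cxcl2 together gave 92.0%, 84.0% and 87.7% of that sum, and with Cxcl16 and Cxcl1 the share was 99.2% ± 0.195. Against a level of 1 TPM, tested with limma on log2(TPM + 1) over all genes with Benjamini-Hochberg adjustment, 6 of the 10 genes stood above and 4 below. Of the 20685 genes tested, 44.5% stood above and 50.4% below. The 6 genes above were Cxcl10, Cxcl2, Cxcl16, Cxcl1, Cxcl11 and Cxcl9, and the 4 below were Cxcl3, Cxcl12, Cxcl14 and Cxcl5. Each of those lists is in order of mean TPM.

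Neighbours in that order were not always separable. Cxcl10 and Cxcl2 overlapped in their ranges, although Cxcl10 was the higher of the pair in 3 of 3 libraries. Cxcl16 and Cxcl1 overlapped, with Cxcl16 higher in 2 of 3, and so did Cxcl11 and Cxcl9, with Cxcl11 higher in 1 of 3. Among the low genes, the ranges of Cxcl3 and Cxcl12 and those of Cxcl12 and Cxcl14 overlapped. The ranges did not overlap between Cxcl2 and Cxcl16, Cxcl1 and Cxcl11, Cxcl9 and Cxcl3, or Cxcl14 and Cxcl5. The plot of levels by gene shows these ranges.

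**Figure D1:**
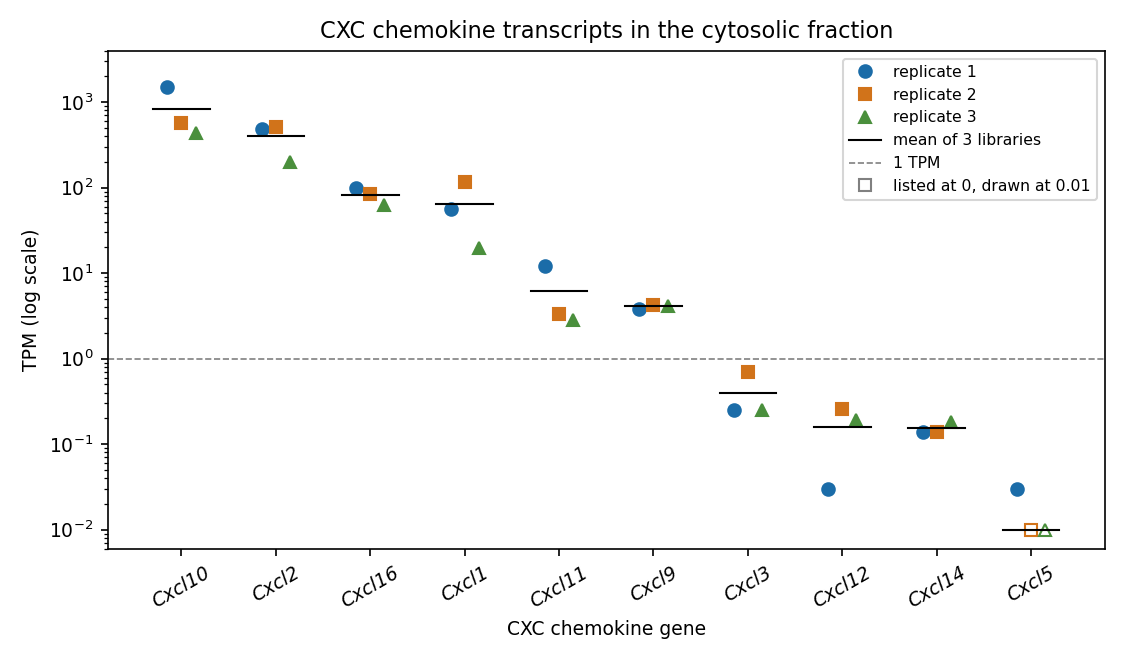
Level of each CXC chemokine gene in TPM (log scale), genes ordered by mean; points are the 3 libraries, solid bars their mean, and the dashed line 1 TPM. Cxcl10 and Cxcl2 lie highest, at means of 837 and 402 TPM, 6 genes lie above the line, and open symbols are libraries listed at 0 TPM, drawn at 0.01.

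Among the ELR ligands, Cxcl2 and Cxcl1, the main neutrophil attractants of stimulated mouse macrophages, were both abundant, while Cxcl3 of the same gene cluster was below 1 TPM and Cxcl5 was at the limit of detection. Cxcl2 (chromosome 5, 90903871 to 90905938, plus strand, mm10) stood at 490.6, 515.2 and 200.5 TPM in replicates 1, 2 and 3. Replicates 1 and 2 were close together and replicate 3 lower, and the mean was 402 ± 175 TPM. The limma estimate on log2(TPM + 1) was 7.54 above the value at 1 TPM (SE 0.31, adjusted p = 7.3e-07).

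Cxcl1 (chromosome 5, 90891241 to 90893115, plus strand) stood at 57.1, 115.6 and 19.6 TPM, a mean of 64.1 ± 48.4, or 38.3 TPM without replicate 2. Replicate 2 was highest and replicate 3 lowest, and as a share of counts the highest library was 5.68-fold above the lowest, a spread that 2.37% of 13075 genes reached. Its level was still above 1 TPM by limma (log2 difference 4.70, SE 0.50, adjusted p = 5.7e-04). Cxcl2 exceeded Cxcl1 by 8.59, 4.46 and 10.2 times in TPM in replicates 1, 2 and 3, so the ratio of this pair was lowest where Cxcl1 was highest.

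Cxcl3 (chromosome 5, 90786103 to 90789600, plus strand) encodes another ligand of the same receptor and stood at 0.25, 0.69 and 0.25 TPM, from 15, 51 and 17 counts. It was below 1 TPM by limma (log2 difference -0.53, SE 0.10, adjusted p = 0.0024), a call lost without replicate 1 (limma adjusted p = 0.066). With TPM rescaled over coding genes it stood at 1.34 TPM, on the other side of the level but not past the threshold (limma adjusted p = 0.47). Cxcl1 exceeded it by 78.4 to 228 times in TPM. Cxcl5 (chromosome 5, 90759360 to 90761624, plus strand), an ELR ligand best known from epithelium and platelets, had 3 counts in replicate 1 and 0 in replicates 2 and 3, or 0.03, 0 and 0 TPM. No spread between libraries could be read from these counts.

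The 4 members with ELR codons lie within 146.6 kb of chromosome 5 in the order Cxcl5, Cxcl3, Cxcl1, Cxcl2. Ppbp and Pf4, both platelet chemokine genes, and Cxcl15 lie among them, and the motif was not examined in these neighbours. The high genes stood at the Cxcl2 end. Pf4 was the exception at the other end, at 89.5, 82.1 and 78.0 TPM (83.2 ± 5.82), while Ppbp stood at 0.29, 0.09 and 0.20 TPM and Cxcl15 was listed at 0. Beside Pf4, none of the 7 megakaryocyte and platelet markers passed 1 TPM and their summed level was 0.08 to 0.14 TPM.

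The 250 bases before the start were searched for letters that match the binding motif of NF-κB, the factor activated by Tlr4, in the RefSeq promoter table of GRCm38.p6. Stretches of Cxcl1, Cxcl2 and Cxcl3 are shown because the last differs so much in level from the others. Capitals mark every match to GGGNNTTCC or GGGNNNTTCC on either strand, overlapping matches included, with 12 bases on each side. Coordinates are chr5:90891144-90891196 for Cxcl1, chr5:90903790-90903842 for Cxcl2 and chr5:90786016-90786072 for Cxcl3, all on the plus strand.
Cxcl1: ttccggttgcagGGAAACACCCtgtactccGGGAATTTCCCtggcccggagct
Cxcl2: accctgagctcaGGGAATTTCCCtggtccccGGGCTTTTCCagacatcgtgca
Cxcl3: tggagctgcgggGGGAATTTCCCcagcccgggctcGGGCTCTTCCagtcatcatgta
All 3 hold the same 10 letters GGGAATTTCC, at -71 to -62 in Cxcl1, -97 to -88 in Cxcl2 and -73 to -64 in Cxcl3. Positions are counted from the RefSeq start, which differs from the GENCODE gene start given above. The 250 bases searched end at 90891244 in Cxcl1, 90903898 in Cxcl2 and 90786100 in Cxcl3. For Cxcl1 and Cxcl2 that end lies inside the gene span given above, so the offset of the site between genes depends on the annotation. A match to either form occurred in 8.26% of the 32851 windows in the table. A match is a description of the letters and not of binding, and Cxcl3 held the motif at 0.397 ± 0.254 TPM. The motifs were chosen after the sequences had been seen.

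The 3′ UTRs were compared in the same way for ATTTA, the pentamer of AU-rich elements, which are bound by Zfp36 and related proteins in short-lived cytokine mRNAs. This pentamer, too, was chosen after the sequences had been seen. The 3′ UTR of Cxcl2 held 11 pentamers in 734 bases, or 15.0 per kb, a density that 0.203% of 12805 genes reached. Cxcl1 held 7 in 592 bases, or 11.8 per kb (0.445% of genes at least as dense), and Cxcl3 held 5 in 645 bases, or 7.75 per kb (1.99%). Cxcl5, the remaining member with ELR codons, held 5, or 4.50 per kb (9.09%). The other 6 members held fewer per kb, from 0 in Cxcl14 to 2.74 in Cxcl10, with Cxcl11 at 0.821, Cxcl9 at 1.22, Cxcl16 at 1.41 and Cxcl12 at 2.69. The median gene held 1.27 per kb. The densest 30 bases of the leading pair are shown, with pentamers in capitals.
Cxcl1: gagggtcctATTTATTTAtgtATTTATTTA
Cxcl2: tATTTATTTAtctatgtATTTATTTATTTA
Among the genes that act on such mRNAs, 7 of 8 stood above 1 TPM and 0 below. The highest were Zfp36, which promotes decay, at 527 ± 131 TPM and Zfp36l1 at 88.9 ± 8.16 TPM, and the lowest, Traf3ip2, was placed on neither side.

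Of the Cxcr3 ligands, Cxcl10 stood far above Cxcl9 and Cxcl11, which overlapped in level, although all 3 lie side by side within 44.1 kb of chromosome 5. Cxcl10 (chromosome 5, 92346638 to 92348889, minus strand) was the highest CXC chemokine in every library, at 1497, 573.9 and 441.1 TPM, a mean of 837 ± 575, or 507.5 TPM without replicate 1. Replicate 1 stood apart from the others, and the highest share of counts was 2.81-fold above the lowest, a spread that 5.81% of genes reached. Its level was above 1 TPM by limma (log2 difference 8.50, SE 0.37, adjusted p = 1.2e-06), and it made up 57.9% ± 12.7 of the family's summed TPM.

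Cxcl11 (chromosome 5, 92359544 to 92365485, minus strand) stood at 12.3, 3.33 and 2.87 TPM, a mean of 6.16 ± 5.31, again with replicate 1 highest. It was above 1 TPM by limma (log2 difference 1.60, SE 0.43, adjusted p = 0.027), and this call was lost with a pseudocount of 0.1, with a mean count of at least 10, in the second, separately quantified set of tables and without replicate 2 (limma adjusted p = 0.061 to 0.085). Without replicate 1 its mean was 3.10 TPM, and it was 2.57 TPM in the second tables. The annotation types the gene as a polymorphic pseudogene, and C57BL/6 mice are known to carry a change that breaks its reading frame. The transcript annotated as protein coding took 91.4% ± 0.647 of its TPM and the polymorphic pseudogene transcript the rest.

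Cxcl9 (chromosome 5, 92321347 to 92328079, minus strand), the ligand most tied to interferon gamma, stood at 3.82, 4.30 and 4.17 TPM, a mean of 4.10 ± 0.248. The libraries lay close together, with the highest share of counts 1.19-fold above the lowest, and 62.5% of genes spread at least as far. Cxcl9 was above 1 TPM by limma (log2 difference 1.35, SE 0.08, adjusted p = 2.0e-06). In TPM, Cxcl10 exceeded Cxcl9 by 392, 133 and 106 times and Cxcl11 by 122, 172 and 154 times in replicates 1, 2 and 3. The highest ratio was 3.70 times the lowest for the first pair and 1.41 times for the second, so Cxcl11 kept closer to Cxcl10 across libraries than Cxcl9 did. The plot of levels along the clusters places each gene at its distance from the cluster's end. Art3, whose gene overlaps Cxcl10 and Cxcl11 on the opposite strand, stood at 0.08 to 0.14 TPM, and the strand setting of the counting is not given in the sources used here.

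**Figure D2:**
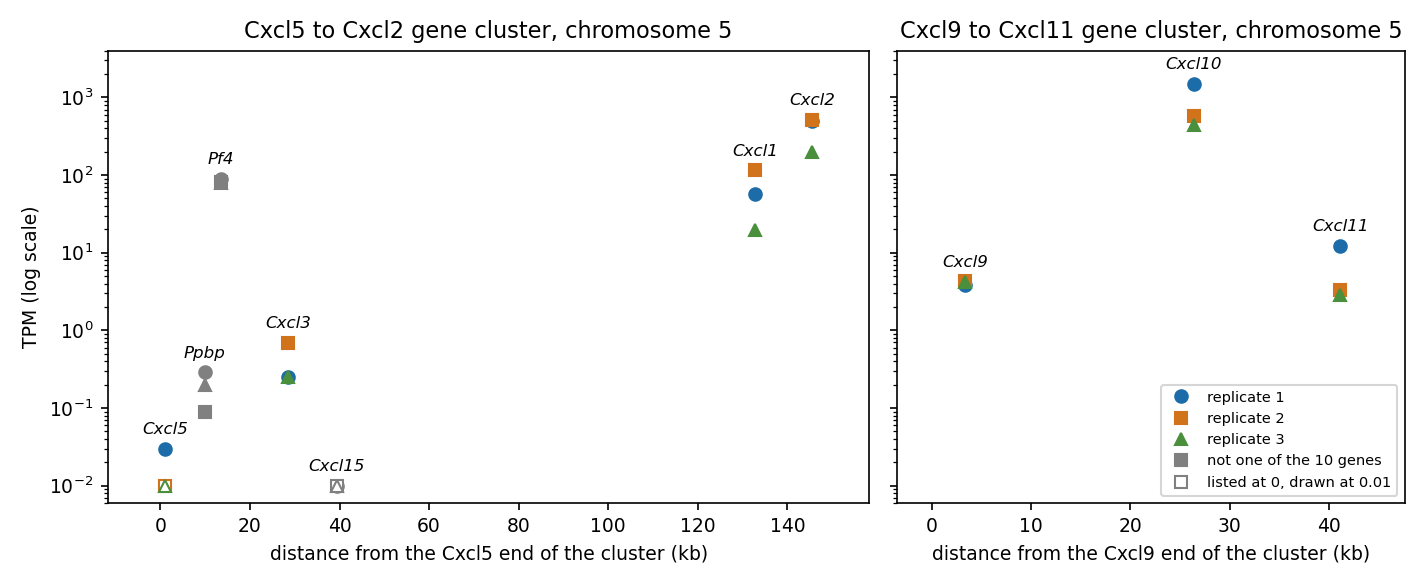
TPM (log scale) of CXC chemokine genes against distance from the Cxcl5 end (left) or the Cxcl9 end (right) of each chromosome 5 cluster; each symbol is 1 library, grey genes are not among the 10 described, and open symbols are listed at 0. Levels of 4.10 TPM for Cxcl9 and 837 TPM for Cxcl10 lie within 44.1 kb, and Cxcl2 and Cxcl1 stand at the far end of the 146.6 kb cluster.

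Promoter stretches of Cxcl10 and Cxcl9 are shown because the genes differ in level and in how they varied. The search added GAAANNGAAA, the core of the interferon-stimulated response element (ISRE), and TGANTCA, the AP-1 motif, on either strand, with capitals for matches and 12 bases on each side. The Cxcl10 stretch is chr5:92348945-92349114 and the Cxcl9 stretch chr5:92328101-92328221, both read on the minus strand.
Cxcl10: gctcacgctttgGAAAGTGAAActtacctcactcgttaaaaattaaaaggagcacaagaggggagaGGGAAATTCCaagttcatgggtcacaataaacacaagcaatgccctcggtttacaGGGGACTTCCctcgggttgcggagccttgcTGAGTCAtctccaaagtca
Cxcl9: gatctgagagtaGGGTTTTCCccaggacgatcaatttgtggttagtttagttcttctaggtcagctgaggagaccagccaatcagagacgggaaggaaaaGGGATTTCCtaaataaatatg
Cxcl10 held an ISRE match at -213 to -204, NF-κB matches at -159 to -150 and -104 to -95, of which the latter contains a shorter match, and an AP-1 match at -74 to -68. Cxcl9 held NF-κB matches at -130 to -122 and -42 to -34 and no ISRE or AP-1 match. An ISRE match occurred in 2.98% of all windows, an AP-1 match in 6.75%, and NF-κB and ISRE together in 0.222%. Cxcl14 held an ISRE match and Cxcl12 held none of the 3 motifs. Cxcl5, Cxcl11 and Cxcl16 have no entry in the table.

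Cxcl16 (chromosome 11, 70453983 to 70459984, minus strand) encodes a transmembrane chemokine that is released by Adam10 and Adam17 and binds Cxcr6. It stood at 100.2, 83.8 and 62.9 TPM, a mean of 82.3 ± 18.7. The highest share of counts was 1.31-fold above the lowest, against 1.25-fold for the median gene, and 40.9% of genes spread at least as far. It was above 1 TPM by limma (log2 difference 5.36, SE 0.17, adjusted p = 4.2e-08). Zmynd15, which overlaps it on the opposite strand, stood at 1.93 to 2.92 TPM. Of the proteases listed as shedding or trimming CXC ligands, 5 of 8 stood above 1 TPM and 3 below. Anpep, which trims N termini, was highest at 239 ± 16.5 TPM, Adam17 stood at 31.0 ± 4.35 TPM, and Dpp4, the peptidase that inactivates Cxcr3 ligands, was lowest at 0.04 TPM.

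Cxcl12 and Cxcl14, ligands made without stimulation by stromal and epithelial cells, were both below 1 TPM. Cxcl12 (chromosome 6, 117168535 to 117181367, plus strand), which retains haematopoietic cells in marrow through Cxcr4, stood at 0.03, 0.26 and 0.19 TPM, from 4, 58 and 27 counts. Replicate 1 was lowest and replicate 2 highest. The summed level of the 10 stromal markers was 0.25, 8.66 and 3.86 TPM in replicates 1, 2 and 3, with Col3a1 at 0, 2.03 and 0.77 TPM and Lepr listed at 0 in all. Of the 9 stromal markers with at least 30 counts, 8 were highest in replicate 2 by TPM, as Cxcl12 was, and Pdgfrb was tied at 0.08 TPM in replicates 2 and 3. Their part in the Cxcl12 level was not tested. In bulk RNA, more cells of a type and more RNA per cell cannot be told apart.

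Cxcl14 (chromosome 13, 56288643 to 56296551, minus strand), whose receptor is disputed, stood at 0.14, 0.14 and 0.18 TPM, from 17, 20 and 24 counts. The libraries did not separate at this depth (chi-square test of the counts, 2 degrees of freedom, adjusted p = 0.39). Both genes were below 1 TPM by limma, Cxcl12 with a log2 difference of -0.79 (SE 0.06, adjusted p = 1.5e-05) and Cxcl14 with -0.79 (SE 0.04, adjusted p = 8.1e-07). The Cxcl12 call was lost with TPM rescaled over coding genes (0.559 TPM, limma adjusted p = 0.052).

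Counts differed between libraries by more than sampling noise for 8 of the 9 genes with at least 30 counts in sum, by a chi-square test adjusted over all genes. Over all 13075 genes tested the share was 69.3%, so the members' count sits on a high background. The exception was Cxcl14, and Cxcl5 had too few counts for the test. The median gene had a highest share of counts 1.25-fold above its lowest. By TPM, Cxcl10, Cxcl11 and Cxcl16 were highest in replicate 1, which was the highest library for 55.3% of the genes that varied. Cxcl1, Cxcl2, Cxcl3, Cxcl9 and Cxcl12 were highest in replicate 2, as 26.8% of varying genes were, and 0 of the 8 in replicate 3, as 17.9% were. Replicate 3 was the lowest for Cxcl1, Cxcl2, Cxcl10, Cxcl11 and Cxcl16, which are 5 of the 8 (Cxcl3 was tied for lowest between replicates 1 and 3), and for 45.7% of varying genes. Cxcl16 was highest in replicate 2 when taken as a share of counts, at 284, 295 and 225 CPM.

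The members' profiles over the libraries were set on a common scale. On log2 TPM centred on each gene's mean, Cxcl10 stood at 1.05, -0.33 and -0.71 and Cxcl11 at 1.33, -0.56 and -0.77 in replicates 1, 2 and 3. Beside them, the median of 12 interferon-stimulated genes was 0.55, -0.32 and -0.20. All 12 were highest in replicate 1 and 0 were lowest in replicate 3, where Cxcl10 and Cxcl11 were lowest. Ifnb1, the interferon beta gene, stood at 9.78, 5.09 and 2.06 TPM, in the same order of libraries as Cxcl10. Tnf and Ccl4, of the early inflammatory list described next, had this order too.

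Cxcl1 stood at 0.18, 1.19 and -1.37 and Cxcl2 at 0.41, 0.48 and -0.88 on that scale. Beside them, the median of 12 early inflammatory genes was 0.23, 0.33 and -0.67, with 7 highest in replicate 2, 5 in replicate 1 and 11 lowest in replicate 3. Over all genes that varied, the medians were 0.11, -0.03 and -0.08. Cxcl9 stood at -0.10, 0.07 and 0.03 and so did not share the pattern of its cluster neighbours. These are differences between 3 libraries of 1 treatment, and no label explains them.

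**Figure D3:**
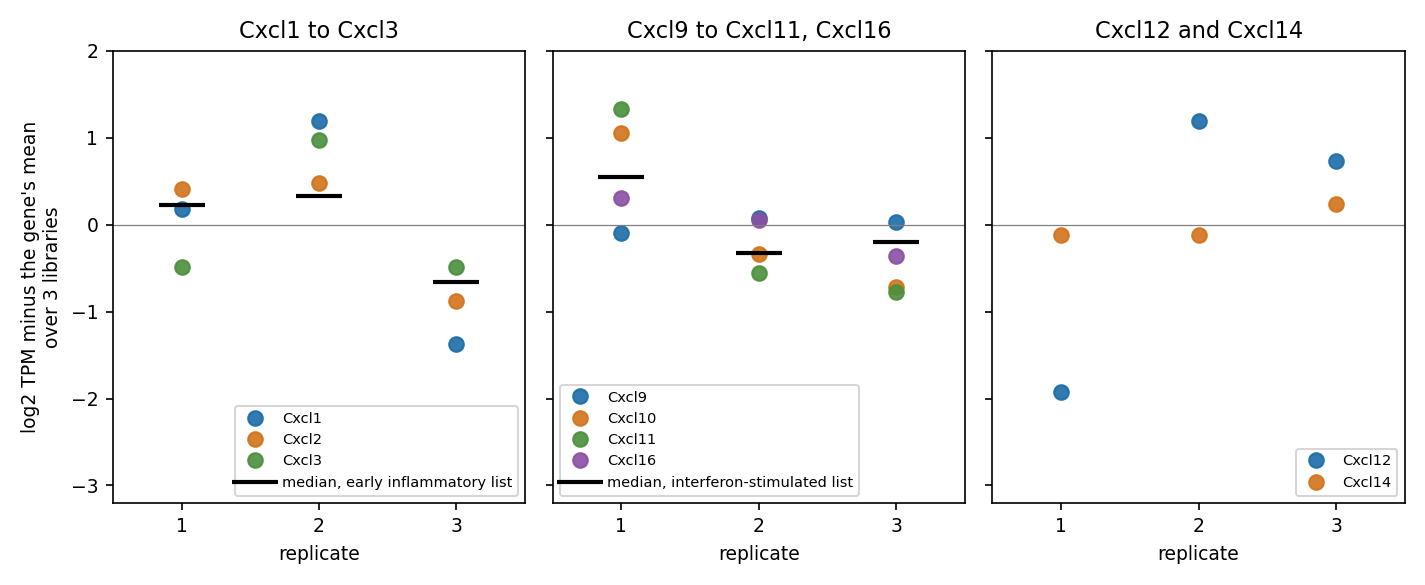
Log2 TPM of each CXC chemokine gene minus its mean over the 3 libraries, by replicate; black bars are medians of the early inflammatory list (left) and the interferon-stimulated list (middle), of 12 genes each. Cxcl10 and Cxcl11 stand at 1.05 and 1.33 in replicate 1, Cxcl1 at 1.19 in replicate 2 and -1.37 in replicate 3, and Cxcl5, with 0 in 2 libraries, is not drawn.

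The genes nearest to the abundant members in this centred profile were found among 3983 protein-coding genes of at least 10 TPM, by the Euclidean distance over 3 libraries. The nearest to Cxcl10 was Ly6a, at 187, 79.3 and 60.5 TPM and a distance of 0.11, followed by the CC chemokine genes Ccl12 at 0.22 and Ccl8 at 0.39. Nearest to Cxcl2 were Ifrd1 at 0.08, Cited2 at 0.08 and Cd40 at 0.13. Cxcl1 had no gene within 0.25, and its nearest were Gem at 0.43, Tnfsf9 at 0.55 and Egr2 at 0.65. By contrast, 927 genes lay within 0.25 of Cxcl16, led by Ccdc71l at 0.01, with 11 near Cxcl2 and 2 near Cxcl10. With 3 points per gene, likeness is a description only.

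Most members were read almost wholly as 1 annotated transcript. The leading coding transcripts of Cxcl1, Cxcl2 and Cxcl10 each took 97.6% or more of their gene's TPM in every library. Cxcl16 was the exception among the abundant genes. Its coding transcript took 60.3%, 68.7% and 66.0% in replicates 1, 2 and 3, and the rest lay almost all on 1 other transcript. This transcript, annotated as a target of nonsense-mediated decay, the pathway that degrades mRNAs with premature stop codons, took 37.3%, 29.3% and 31.7%. The mean TPM share of the decay target was 32.7% ± 4.13, and 33.4% ± 4.84 in the second tables. Its share of the gene's expected counts was lower, at 20.4%, 15.1% and 16.5%, as it is the shorter transcript, at 1267 against 2699 bases. Shares of Cxcl12 transcripts rested on 89 counts in all and are not interpretable.

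Retained-intron transcripts, in which an intron has not been spliced out, were a small share of the counts of the abundant members. Cxcl1 had 1.30%, 0.260% and 3.19% of its counts on them in replicates 1, 2 and 3, Cxcl2 had 1.06%, 0.526% and 3.25%, and Cxcl10 had 0.303%, 0.257% and 1.13%. These 3 genes, grouped after their values were seen, were highest in replicate 3 and lowest in replicate 2, also in the second tables. Cxcl16 differed, with 1.83%, 1.48% and 1.67%, highest in replicate 1, whereas the second tables gave it 4.95%, 4.88% and 5.56%, highest in replicate 3. For all genes with such transcripts, the median of 6047 genes was 0.277%, 0.249% and 0.678%. Of 5445 genes with such counts, 63.3% were highest in replicate 3. Cxcl9 had 0.0741%, 0.768% and 0.772%, on 0.56, 7.24 and 6.33 counts, too few to order the libraries. The second tables gave Cxcl9 higher shares, at 2.57%, 3.60% and 3.39%, so its share depends on the quantification. Cxcl3 had 1.1 such counts, in replicate 3. Nuclear RNAs moved alike, with Malat1 at 112, 90.6 and 452 TPM and Neat1 at 10.9, 7.1 and 29.7 TPM, and their part in the intron shares was not tested. The plot of transcript types shows both results.

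**Figure D4:**
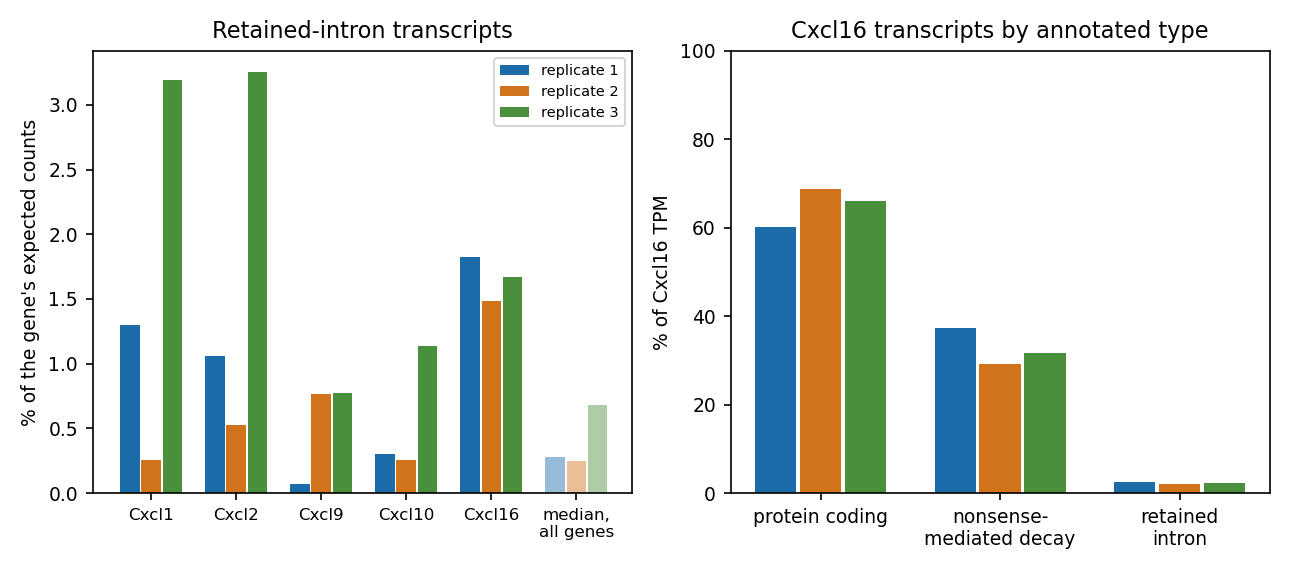
Left, percent of each gene's expected counts on retained-intron transcripts in replicates 1, 2 and 3, with the median of 6047 genes in pale bars; right, percent of Cxcl16 TPM by annotated transcript type. Replicate 3 is highest for Cxcl1, Cxcl2 and Cxcl10 and replicate 1 for Cxcl16, and the nonsense-mediated decay transcript of Cxcl16 holds 37.3%, 29.3% and 31.7%.

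The receptors of these ligands were mostly low in the macrophages. Of 8 CXC and atypical receptors, 2 stood above 1 TPM, 5 below and Cxcr1 was listed at 0. Cxcr4, the receptor of Cxcl12, stood at 5.01, 5 and 3.55 TPM (4.52 ± 0.840), and Cxcr3, the receptor of Cxcl9, Cxcl10 and Cxcl11, at 1.62, 1.69 and 2.05 TPM (1.79 ± 0.231). Cxcr2, the receptor of the ELR ligands, was at 0.01, 0 and 0.01 TPM, and Cxcr6, the receptor of Cxcl16, at a mean of 0.0533 TPM. Of the other CXC chemokines, Cxcl13, Cxcl15 and Cxcl17 were listed at 0. All 12 genes listed for transcription control of the family stood above 1 TPM, led by Irf7 at 695 ± 216 TPM, a driver of interferon genes, and Nfkbia, the inhibitor of NF-κB, at 530 ± 140 TPM, with Ifnb1 lowest at 5.64 ± 3.89 TPM.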

How the data were processed

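Gene and transcript tables of the 3 libraries use mm10 and GENCODE M21, per the deposited text files. Expected counts, TPM, the percent of a gene's abundance per transcript, and other values (posterior SDs of counts) were deposited by the authors, per the file headers. A second set of transcript tables holds estimates made separately, as counts and as TPM per the file headers. Which aligner, quantifier and strand setting were used is not given in the sources used here. TPM is a share of the library, so more non-coding RNA lowers every coding gene; coding genes held 34.5%, 29.0% and 27.5% of TPM in replicates 1, 2 and 3. Entries that are not genes (26345, with 0.378%, 0.0931% and 0.0772% of counts) were left out.

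For levels, limma 3.58.1 (R 4.3.3) fitted log2(TPM + 1) with an intercept alone and tested it against 1 TPM (trend, robust, two-sided, genes above 0 TPM in at least 1 library). The pseudocount of 1 compresses low levels. Counts were rounded for a chi-square test between libraries (at least 30 counts in sum). Adjusted p under 0.05 (Benjamini-Hochberg) was called. On simulated data the level test called 100% of genes at 0.5-, 2- and 4-fold of 1 TPM and 0% at 1 TPM (20685 genes), and the noise test 100% of doubled genes and 0.941% of unchanged ones (12954 genes). The genes simulated for the level test all had the same spread, the median of genes of low to moderate level. These rates therefore do not cover genes that spread more widely.

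Alternatives were a level of 5 TPM, a pseudocount of 0.1, a minimum mean count of 10, other count minimums, TPM rescaled over coding genes, TMM (edgeR 4.0.16), DESeq2 1.42.0 size factors, the second tables and leaving out each replicate. The genes named were drawn from all members, receptors and other CXC chemokines, the 2 highest and the lowest measured gene of each other list, and the 3 nearest profiles per abundant member, and not all that qualified are named. Outside that rule, chosen after their values were seen, are the overlapping Art3 and Zmynd15, the markers Pdgfrb, Col1a2, Postn and Pecam1, and the markers listed at 0. A tie for highest or lowest library was counted for the lower replicate number. The members and lists were chosen with earlier results of these data known. Promoters came from RefSeq (GRCm38.p6) and other sequences from GENCODE M21. Python 3.11.15, pandas 2.3.3, numpy 2.4.6 and matplotlib 3.10.9 were used.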

Additional observations from a re-analysis of the deposited data

How the results depend on the processing

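No paired analysis was possible because the samples form 1 group. The count of genes above 1 TPM, 6 as reported, was 5 with a pseudocount of 0.1, with a mean count of at least 10 and in the second tables, 4 at a level of 5 TPM, and 5 to 6 with 1 replicate left out. The gene lost in the settings with 5 was Cxcl11. Genes that varied beyond noise, 8 as reported, were 6 with at least 100 counts and 6 to 8 with 1 replicate left out. Cxcl3 and Cxcl12, with 83 and 89 counts in sum, fell under the minimum of 100 and were not tested there. Rescaling over coding genes raised the median log2 level by 1.54 to 1.86, put Cxcl3 above 1 TPM at 1.34 TPM (not past the threshold, limma adjusted p = 0.47), ended the call of Cxcl12 below 1 TPM (adjusted p = 0.052), and gave 2 genes highest in replicate 3 in place of 1, since Cxcl9 joined Cxcl14. Cxcl9, at 4.10 TPM, fell on the other side of the higher level of 5 TPM by construction. In the second tables Cxcl16 was highest in replicate 2, and the Cxcl9 coding transcript took 64.9% in place of 91.7% of its gene. Member TPM in those tables was 0.417 to 0.767 times that of the gene tables. Library differences of Cxcl3 were lost without replicate 2 (chi-square adjusted p = 0.64), and those of Cxcl9 and Cxcl11 without replicate 1 (adjusted p = 0.96 and 0.24). Depth limits Cxcl3, Cxcl5, Cxcl12 and Cxcl14, each with few counts.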
